A study of Mus musculus with 8 samples.

Results

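The mitochondrial ribosomal proteins are the nuclear-encoded proteins of the ribosome that works inside mitochondria. They were taken as all genes whose name on the array starts with Mrpl (large subunit) or Mrps (small subunit) followed by a number. This gave 75 genes, 46 Mrpl and 29 Mrps, of 27670 gene names on the array, with 125 of 41174 probes. Each gene was represented by its brightest probe among those well above background in at least 4 of 8 channels of a group. On this basis 74 of the 75 genes were measured. The exception was Mrps27, whose only probe was well above background in 1 DEHP channel and 1 vehicle channel.

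The series compared male C57BL/6J mice aged 21 weeks that were gavaged daily for 21 days with corn oil alone (vehicle) or with di-(2-ethylhexyl) phthalate (DEHP), a plasticiser, at 200 mg/kg/day in corn oil, 4 mice per group. RNA of each mouse came from areas of the right testis cut out with a laser in the intermediate layer of the seminiferous epithelium. These areas are labelled rich in Sertoli cells, the somatic cells that carry the germ cells, although the extraction protocol in the labels speaks of Leydig cells. The RNA was amplified in 2 rounds and hybridised to 8 Agilent 2-colour arrays, each DEHP mouse against 1 vehicle mouse in both dye orientations, which gives 4 pairs. In pairs 1 to 4, DEHP mice 1 to 4 had vehicle mice 2, 3, 4 and 1 as partners. The pairing is one of hybridisation only. Between 48.8% and 58.3% of spots per channel were well above background, and the number of arrays limits the precision. All 4 arrays of a dye orientation lay on 1 slide, so slide and orientation cannot be told apart.

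As background, the mitochondrial ribosome translates the few mRNAs of mitochondrial DNA, all of which code for membrane subunits of the respiratory chain and ATP synthase. All of its proteins are made in the cytosol and imported, and they include homologues of bacterial ribosomal proteins as well as proteins found only in mitochondria. In the testis, mitochondria serve steroid synthesis and the energy supply of germ cells, and Sertoli cells pass lactate to the germ cells as a fuel.

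Every value here rests on a probe of 60 bases. Of the 74 representative probes, 60 matched 60 contiguous bases of the mouse genome (mm7, the build of the array's annotation), and 14 spanned a longer stretch. The 5 probes below belong to members on which the results turn. They are Mrps22 (chr9:98230397-98230456, minus strand), which varied most between pairs, Mrpl24 (chr3:88037016-88037075, plus strand), whose mice did not overlap between groups, Mrpl51 (chr6:125219645-125219704, plus strand), whose sign followed the dye, Mrps36 (chr13:97844619-97844678, minus strand), low in 1 pair, and the dimmer probe of Mrpl50 (chr4:49528031-49528090, minus strand), whose sign opposed that of the brighter one. Exon positions in this build were not used here.
Mrps22: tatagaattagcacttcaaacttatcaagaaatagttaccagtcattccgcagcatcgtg
Mrpl24: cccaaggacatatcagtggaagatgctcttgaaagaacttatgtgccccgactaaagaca
Mrpl51: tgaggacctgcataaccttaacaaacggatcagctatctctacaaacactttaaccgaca
Mrps36: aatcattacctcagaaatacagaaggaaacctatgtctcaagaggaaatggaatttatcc
Mrpl50: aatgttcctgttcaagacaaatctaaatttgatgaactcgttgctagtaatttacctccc

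The upstream sequences of 66 of the 75 genes, 72 promoters in all, were found in the RefSeq table (GRCm38.p6). In the 250 bases before the start, CCGGAAG, the core of sites for ETS factors such as GABP, stood on either strand in 17 of the 72 promoters (23.6%), against 6.91% of all promoters in the table and 11.5% of those of genes measured here. The palindromic site of nuclear respiratory factor 1 (NRF1), spelled out in capitals in the Mrpl39 promoter below, stood in 3 of 72 (4.17%), against 0.782% and 1.36%. AAGATGGC, a site of YY1, stood in 4 of 72 (5.56%), against 1.56% and 1.89%. The direct repeat bound by PPAR, a receptor family activated by DEHP metabolites, is AGGTCA repeated after 1 base of any kind, and it stood in 0 of 72, against 0.0335% and 0.0691%. TGCGCATG, which overlaps the NRF1 site but is not contained in it, stood in 6 of 72 (8.33%), against 1.79% and 2.78%. The motifs of SP1 and NFY were near the share of genes measured here. GGGCGG, a site of SP1, stood in 35 of 72 (48.6%), against 32.7% and 50.6%. CCAAT, a site of NFY, stood in 27 of 72 (37.5%), against 33.8% and 34.9%. These matches describe letters and not bound sites. One promoter with each of the first 3 motifs is shown 5′ to 3′ on the strand of the gene, with the motif in capitals. They are Mrps22 with the ETS core (chr9:98601680-98601929, minus strand), Mrpl39 with the NRF1 site (chr16:84735245-84735494, minus strand) and Mrpl36 with the YY1 site (chr13:73330759-73331008, plus strand).
Mrps22: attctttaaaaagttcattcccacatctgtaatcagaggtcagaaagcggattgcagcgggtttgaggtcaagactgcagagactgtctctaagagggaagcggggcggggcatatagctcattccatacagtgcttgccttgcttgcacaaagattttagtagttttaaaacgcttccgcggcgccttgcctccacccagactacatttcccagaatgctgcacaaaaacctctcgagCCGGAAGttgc
Mrpl39: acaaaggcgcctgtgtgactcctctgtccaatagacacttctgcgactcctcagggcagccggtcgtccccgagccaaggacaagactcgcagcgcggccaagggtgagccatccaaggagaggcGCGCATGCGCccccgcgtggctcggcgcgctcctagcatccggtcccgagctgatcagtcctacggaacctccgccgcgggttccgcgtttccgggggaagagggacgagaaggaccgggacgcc
Mrpl36: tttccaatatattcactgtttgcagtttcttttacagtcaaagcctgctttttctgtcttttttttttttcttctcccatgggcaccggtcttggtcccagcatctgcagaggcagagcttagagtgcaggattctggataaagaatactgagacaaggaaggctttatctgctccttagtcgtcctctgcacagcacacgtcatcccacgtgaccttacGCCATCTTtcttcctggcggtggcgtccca

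No mitochondrial ribosomal protein differed between the groups past the threshold. In limma, fitted to the 4 pair means over all 22971 probes kept, 0 of 74 members had a Benjamini-Hochberg adjusted p under 0.05, and the share called among all probes was 0%. The smallest adjusted p was 0.903. At an unadjusted p under 0.05 stood 7 of the 74 members, all with a mean ratio above 0, where 4.8% of the 16966 genes measured did so in either direction. Among the 4426 genes with an intensity in the members' interquartile range, that share was 7.91%, against 9.46% of the members. They were Mrpl1, Mrpl16, Mrpl23, Mrpl32, Mrpl36, Mrpl49 and Mrps17. Values below are log2 ratios of DEHP over vehicle, in which 0 is no difference, given as the mean ± SD over the 4 pairs. Of the members given with their pair values, mice or means, Mrpl1, Mrpl24, Mrpl39, Mrpl45, Mrpl46, Mrpl47, Mrpl54, Mrps11 and Mrps12 were not picked by the naming rule and were singled out after their values were seen.

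As a group the members lay slightly above 0. The mean ratio was above 0 in 61 of 74 members (82.4%), against 49.9% of all genes, and the median of the members was 0.089, a fold of 1.06, against -9.53e-05 over all genes. The middle of the distribution, from the lower to the upper quartile, ran from 0.014 to 0.153. The lowest member was Mrpl50 at -0.20 and the highest was Mrps6 at 0.29. The shift was not of one size in the 4 pairs: the median over members was 0.137 in pair 1, 0.0125 in pair 2, 0.168 in pair 3 and 0.0441 in pair 4. Above 0 were 58 members in pair 1, 42 in pair 2, 58 in pair 3 and 43 in pair 4. The median was thus positive in all 4 pairs but close to 0 in pair 2. In a mixed sample such as these, more cells of a type and more RNA per cell cannot be told apart.

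**Figure D1:**
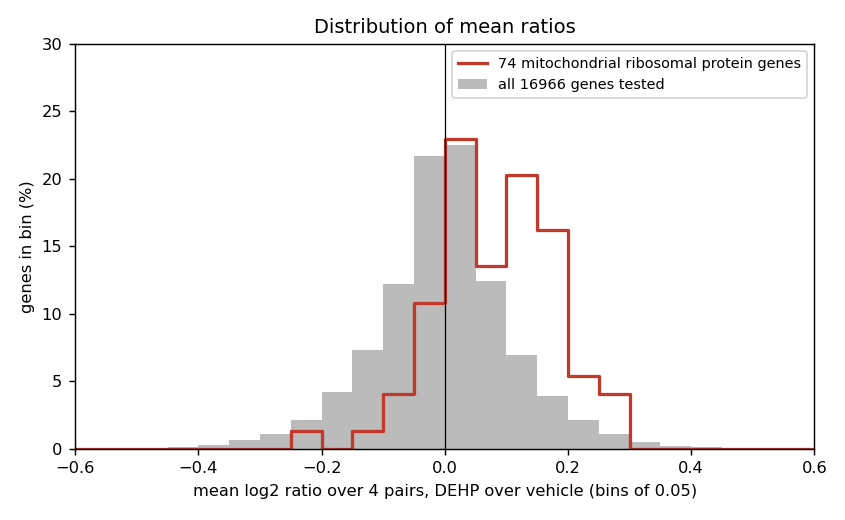
Mean log2 ratio of DEHP over vehicle over 4 pairs, in bins of 0.05 (x axis), against the percent of genes in each bin (y axis). The grey bars show all 16966 genes measured and the red line the 74 mitochondrial ribosomal protein genes, whose median of 0.089 lies to the right of 0.

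Single members varied more between pairs than they differed from 0. The SD over pairs exceeded the size of the mean in 59 of 74 members, with a median SD of 0.17, and the 95% confidence interval of the mean held 0 in 67. The 2 orientations of a pair left a smaller spread, since the median SD of a pair mean from its 2 arrays was 0.0732. The intervals of the measured ratio excluded a change of 2-fold in either direction for all 74 members. They excluded 1.5-fold for 69, the exceptions being Mrps6, Mrpl12, Mrpl54, Mrps5 and Mrpl50. The background correction added an offset of 50 to every intensity, which draws ratios of dim probes towards 0. Dim members included Mrps21 and Mrps35, at log2 intensities of 7.19 and 7.203, where an undetected probe of Mrpl1 stood at 6.855. For dim members the intervals cannot exclude such changes in the mRNA itself. The ratio was above 0 in all 4 pairs in 16 of 74 members, where 6.68% of all genes did so. It was below 0 in all 4 pairs in 1 member, Mrpl11, where 6.9% of all genes did so.

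**Figure D2:**
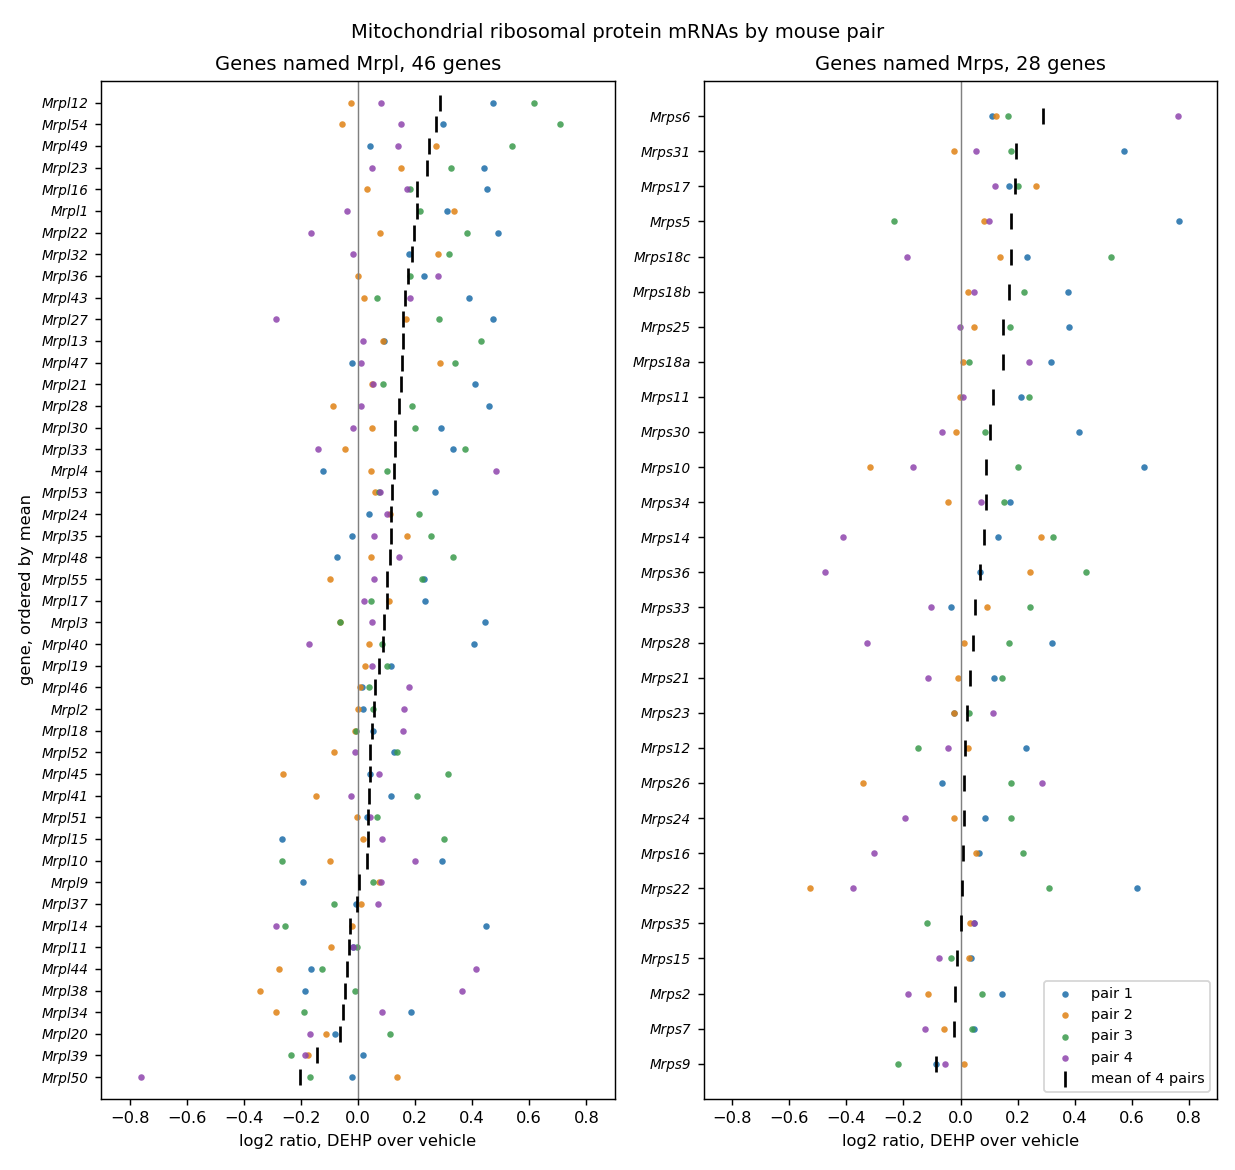
Log2 ratio of DEHP over vehicle (x axis) in each of 4 mouse pairs (coloured points) and their mean (black ticks) for the 46 genes named Mrpl (left) and the 28 measured genes named Mrps (right), ordered by mean. Most means lie above 0, while the points of single genes such as Mrps22 and Mrpl50 spread widely across it.

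Of the 46 genes named Mrpl, for the large subunit, which joins amino acids into the chain, 37 had a mean above 0 and the median was 0.103. The pair medians were 0.122, 0.0145, 0.124 and 0.0542. Of the 7 members at an unadjusted p under 0.05, 6 were named Mrpl, where 4.8% of all genes stood there.

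The proteins around the exit of the peptide tunnel, through which the new chain leaves towards the inner membrane, were Mrpl22, Mrpl23, Mrpl24, Mrpl44, Mrpl45 and Mrpl47, and 5 of the 6 had a mean above 0 (median 0.135). Mrpl23 gave 0.44, 0.15, 0.33 and 0.05 in pairs 1 to 4, above 0 in each, with a mean of 0.24 ± 0.18 and an unadjusted p of 0.0281 in limma (adjusted p 0.903). Mrpl24 gave 0.04, 0.11, 0.21 and 0.10, with a mean of 0.12 ± 0.073. Its normalised log2 level was 11.98, 12.05, 12.01 and 12.01 in DEHP mice 1 to 4 and 11.90, 11.95, 11.93 and 11.80 in vehicle mice 1 to 4, so that all DEHP mice lay above all vehicle mice by a small margin. The orientations did not share that sign for Mrpl24, however, with a mean of -0.10 on the arrays with DEHP in Cy5 and 0.33 on those with DEHP in Cy3. Every array with DEHP in Cy5 lay below 0 and every array with DEHP in Cy3 above it. Mrpl45, the protein that helps hold the ribosome at the inner membrane, gave 0.04, -0.26, 0.32 and 0.08. Mrpl44, related to RNase III and the exception in this group, gave -0.16, -0.28, -0.13 and 0.41, low in the first 3 pairs and high in pair 4. Its means in the Cy5 and Cy3 orientations of DEHP were 0.27 and -0.34.

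The stalk proteins, which recruit the translation factors, differed among themselves. Mrpl12, which also binds the mitochondrial RNA polymerase, gave 0.47, -0.03, 0.62 and 0.08 in pairs 1 to 4 (mean 0.29 ± 0.31), high in pairs 1 and 3. Its level was 11.26, 11.09, 11.25 and 10.89 in DEHP mice 1 to 4 and 10.80, 10.79, 11.11 and 10.63 in the vehicle mice, and the groups overlapped. The mean for Mrpl12 was 0.60 on the arrays with DEHP in Cy3 but -0.02 on those with DEHP in Cy5. Mrpl10, which anchors the stalk, gave 0.30, -0.10, -0.27 and 0.20, without a common sign. Mrpl11, at the base of the stalk, gave -0.02, -0.09, -0.004 and -0.02, the only member below 0 in every pair, with a mean of -0.033 ± 0.041.

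Among the 7 proteins of the central protuberance, where the large subunit contacts the small one, 6 had a mean above 0 and the median was 0.0893. They were Mrpl18, Mrpl27, Mrpl38, Mrpl40, Mrpl46, Mrpl48 and Mrps30, the last named for the small subunit but found in the large one. All 3 probes of Mrpl18 matched the plus strand in mm7, while the gene lies on the minus strand in GRCm38. These strands come from different builds, so they do not show that the probes of Mrpl18 are antisense to its transcript, which was not tested. Mrps30 gave 0.42, -0.02, 0.08 and -0.07, high in pair 1 alone. Mrpl38 gave -0.19, -0.34, -0.01 and 0.36, low in the first 3 pairs and high in pair 4.

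Among the other large-subunit homologues of bacterial proteins, Mrpl16 gave 0.45, 0.03, 0.18 and 0.17, above 0 in every pair (unadjusted p 0.0457 in limma). Mrpl32, a zinc-binding protein processed by the m-AAA protease, gave 0.18, 0.28, 0.32 and -0.02. Mrpl36, another small zinc-binding protein, gave 0.23, 0.001, 0.18 and 0.28. Mrpl1, close to the exit of spent tRNAs, gave 0.31, 0.34, 0.22 and -0.04, and its second probe gave 0.15, 0.21, 0.03 and -0.02. Both probes of Mrpl1 were thus above 0 in pairs 1 to 3 and just below it in pair 4. Mrpl3, near the catalytic centre, gave 0.45, -0.06, -0.06 and 0.05, with a mean that rested on pair 1.

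Of the proteins found only in mitochondria, in both subunits, 20 of 25 had a mean above 0 (median 0.0431), and of the homologues of bacterial proteins 39 of 47 (median 0.115). Mrpl49 gave 0.04, 0.27, 0.54 and 0.14 at its brightest probe, but its other 2 probes gave -0.31 and -0.16 in pair 4, where the brightest gave 0.14. Mrpl43 gave 0.39, 0.02, 0.07 and 0.18, and its second probe 0.13, 0.05, 0.04 and 0.25, above 0 in every pair at both. Mrpl54 gave 0.30, -0.06, 0.71 and 0.15, with the highest value of any member in pair 3. Mrpl51 gave 0.03, -0.002, 0.07 and 0.04, with an SD of 0.028. Mrpl50 gave -0.02, 0.14, -0.17 and -0.76, with a mean of -0.20 ± 0.39, a fold of 0.869, that rested on pair 4. Its dimmer probe, shown above, gave -0.02, -0.005, 0.06 and 0.12, with no low value in pair 4. That probe was near background, however, with a mean log2 intensity of 7.275 against 9.551 at the brighter one. A probe of Mrpl1 that was well above background in 0 channels stood at 6.855. Mrpl39, the second lowest member, gave 0.02, -0.18, -0.24 and -0.19, with an unadjusted p of 0.0556 in limma. The mean for Mrpl39 was -0.28 on the arrays with DEHP in Cy5 but -0.006 on those with DEHP in Cy3.

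Of the 28 measured genes named Mrps, for the small subunit, which reads the mRNA, 24 had a mean above 0 and the median was 0.0594. The name does not settle the place of the protein, since Mrps30 and Mrps18a are found in the large subunit and Mrps36 has been assigned to another complex. The pair medians were 0.157, 0.0125, 0.173 and -0.0598, below 0 in pair 4 alone.

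Mrps17, a core protein of the small subunit, had the smallest unadjusted p of all members (0.00868 in limma, adjusted p 0.903). It gave 0.17, 0.27, 0.20 and 0.12, above 0 and alike in every pair, with a mean of 0.19 ± 0.060, a fold of 1.14. Its level was 11.02, 11.25, 11.09 and 10.84 in the DEHP mice and 10.72, 10.85, 10.98 and 10.89 in the vehicle mice, and DEHP mouse 4 lay within the vehicle range. A dimmer second probe of Mrps17, with a log2 intensity of 7.715 against 10.95, gave -0.01, 0.02, 0.03 and 0.11, close to 0.

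Mrps6, of the platform of the small subunit, gave 0.11, 0.13, 0.16 and 0.76, above 0 in every pair and far higher in pair 4 (mean 0.29 ± 0.31, a fold of 1.22). Its level was 10.04, 10.11, 9.86 and 10.53 in the DEHP mice and 9.77, 9.93, 9.98 and 9.69 in the vehicle mice, so that DEHP mouse 4 was the highest and its partner, vehicle mouse 1, within the vehicle range. A second, dimmer probe of Mrps6 gave -0.08, 0.05, 0.21 and 0.70, likewise highest in pair 4.

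Mrps22, a protein found only in mitochondria, varied most. It gave 0.62, -0.53, 0.31 and -0.38, high in pairs 1 and 3 and low in pairs 2 and 4, with a mean of 0.006 ± 0.55. Its level was 12.03, 11.21, 12.13 and 11.48 in the DEHP mice and 11.86, 11.41, 11.74 and 11.82 in the vehicle mice, and the DEHP mice spanned the vehicle range on both sides. Mrps10, a homologue of a bacterial protein, had the same order of pairs, with 0.64, -0.32, 0.20 and -0.16. Mrps5, near the mRNA entrance, gave 0.76, 0.08, -0.23 and 0.10, with the highest value of any member in pair 1, while its other 2 probes lay between -0.14 and 0.09 in every pair.

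The 3 paralogues of bacterial S18 had a mean above 0. Mrps18a gave 0.32, 0.01, 0.03 and 0.24, and Mrps18c gave 0.23, 0.14, 0.53 and -0.19. The second probe of Mrps18c gave 0.11, 0.18, 0.45 and -0.13, likewise highest in pair 3 and below 0 in pair 4. The orientations did not share a sign at the brightest probe of Mrps18c. Its mean was 0.44 on the arrays with DEHP in Cy5 and -0.08 on those with DEHP in Cy3. Mrps18b gave 0.38, 0.03, 0.22 and 0.05, and was the other member, with Mrpl24, in which all DEHP mice lay above all vehicle mice. Such separation was found in 2 of 74 members and in 0.69% of all genes, and the reverse in 0 of 74 and in 1.04%. The brightest probe of Mrps18b, on which this rests, matched the plus strand (chr17:34014613-34014672), opposite to the strand of the gene in GRCm38. The probe of Mrps18b on the gene's own strand gave 0.26, -0.02, 0.44 and -0.10, and its groups overlapped. It was much dimmer, with a log2 intensity of 7.709 against 13.31. Counted with RefSeq probes alone, a choice made after seeing the data, the separation held in 1 of 73 members.

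**Figure D3:**
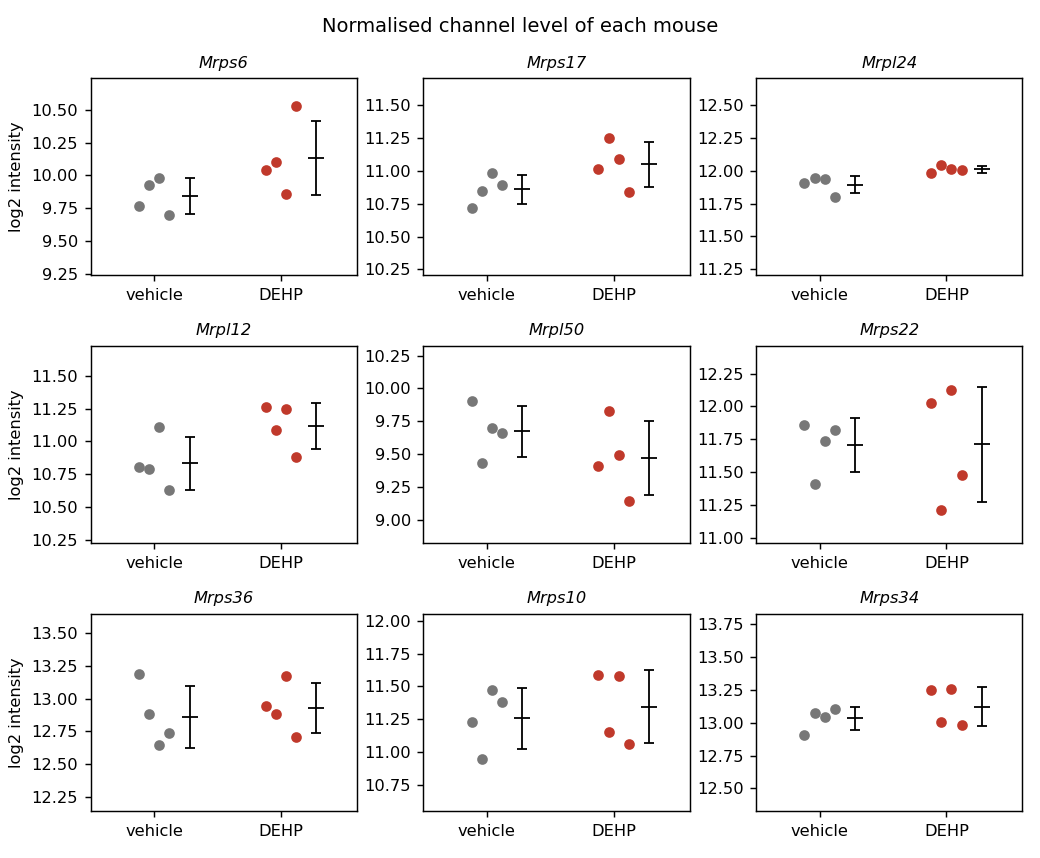
Normalised log2 intensity (y axis, each panel spanning the same range) of 9 members in 4 vehicle mice (grey) and 4 DEHP mice (red), with the mean and SD of each group in black. The groups overlap in every panel but that of Mrpl24, and DEHP mouse 4 stands highest for Mrps6.

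Variants of some of these genes cause defects of mitochondrial translation in humans, and 9 such members were listed, though the list is not complete. They were Mrpl3, Mrpl12, Mrpl44, Mrps2, Mrps7, Mrps14, Mrps16, Mrps22 and Mrps34. Of these, 6 had a mean above 0 and the median was 0.00847. Mrps34 gave 0.17, -0.04, 0.15 and 0.07 (mean 0.089 ± 0.099). Mrps14 gave 0.13, 0.28, 0.32 and -0.41, and Mrps16 gave 0.06, 0.06, 0.22 and -0.30, both low in pair 4. Mrps2 gave 0.14, -0.11, 0.07 and -0.18, and Mrps7 gave 0.05, -0.06, 0.04 and -0.12, each without a common sign. Mrps36, named as a ribosomal protein but assigned to the 2-oxoglutarate dehydrogenase complex, gave 0.07, 0.24, 0.44 and -0.48. Its second probe gave 0.26, 0.05, 0.02 and -0.45, so that both probes of Mrps36 were lowest in pair 4.

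By the sum of the size of the mean and the SD, the members lowest in both together were Mrpl37 (-0.002 ± 0.063), Mrpl51 (0.034 ± 0.028) and Mrps15 (-0.011 ± 0.053). The probe of Mrpl37 was dim, with a log2 intensity of 7.77, where the offset draws mean and SD towards 0. Of 25 members with more than 1 probe kept, 10 had probes whose means differed in sign. They were Mrpl3, Mrpl35, Mrpl38, Mrpl50, Mrpl52, Mrps2, Mrps5, Mrps7, Mrps23 and Mrps36. Several of these probes were near background, such as the dimmer ones of Mrpl52 (log2 intensity 7.192 and 7.286) and those of Mrps23 (7.286 and 7.75). For Mrpl38 the brighter probe had a mean of -0.044 and the dimmer one of 0.24, with 1.05 in pair 1.

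The mean of a member differed between the 2 dye orientations. On the arrays with DEHP in Cy5 the median over members was 0.0776, and on the dye-swapped arrays it was 0.101. Both orientation means were above 0 in 42 members and below 0 in 5, and in 27 they had opposite signs. In Mrpl11, Mrpl24, Mrpl41, Mrpl46, Mrpl51, Mrps7 and Mrps15 all 4 arrays of one orientation lay opposite to all 4 of the other. Mrpl51 was the clearest case, at -0.23, -0.24, -0.15 and -0.15 with DEHP in Cy5 and 0.30, 0.23, 0.29 and 0.23 with DEHP in Cy3 in pairs 1 to 4. Averaging the orientations cancelled this to a mean of 0.034. In all, 7 members and 4.24% of all genes had arrays split in this way.

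**Figure D4:**
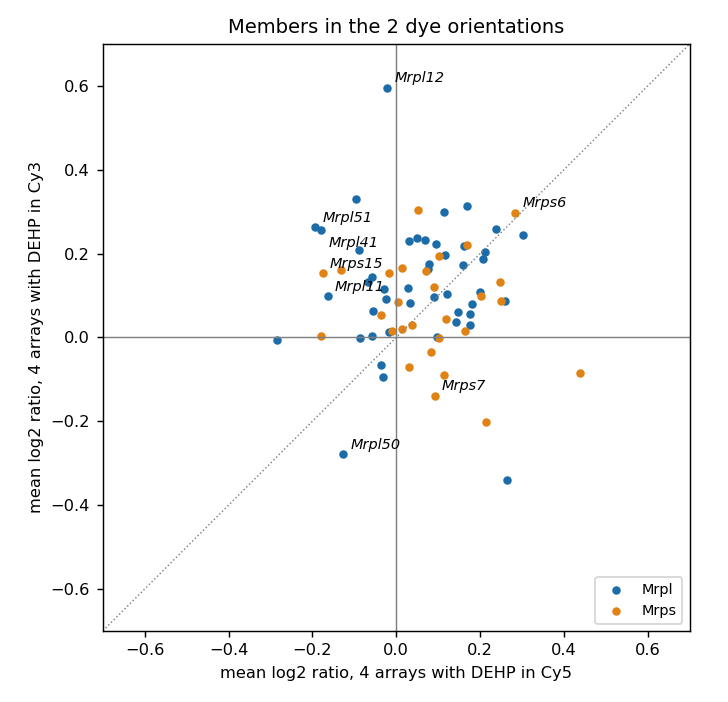
Mean log2 ratio of DEHP over vehicle on the 4 arrays with DEHP in Cy5 (x axis) against that on the 4 arrays with DEHP in Cy3 (y axis) for each Mrpl (blue) and Mrps (orange) gene, with the dotted line marking equal values. In 27 genes the 2 means have opposite signs, Mrpl51 and Mrpl41 among them, and Mrpl12 is high in one orientation alone.

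The genes that work with the mitochondrial ribosome were described in the same way, and 0 of them passed the test in either direction (0% of all probes). Of 7 further proteins of the ribosome with other names, 5 lay above 0 (median 0.122), from Mrpl57 at -0.105 ± 0.18 to Aurkaip1 at 0.18 ± 0.41, with the smallest unadjusted p for Gadd45gip1. Of 17 translation factors 11 lay above 0 (median 0.0324), from the release factor Mtrf1l at -0.065 ± 0.21 to its relative Mtrf1 at 0.20 ± 0.24. Of 15 mitochondrial tRNA ligases 6 lay above 0 (median -0.0109), with the alanine enzyme Aars2 highest at 0.40 ± 0.31 and the cysteine enzyme Cars2 lowest at -0.23 ± 0.44. Of 31 assembly and RNA factors 22 lay above 0 (median 0.0247), with Nsun4, an rRNA methyltransferase, lowest at -0.24 ± 0.52 and the protease subunit Clpp highest at 0.27 ± 0.35. Rpusd4, a pseudouridine synthase of mitochondrial RNA, gave 0.176, 0.07, 0.235 and 0.258, above 0 in every pair. The ligases and factors thus lay closer to 0 than the ribosomal proteins, a difference that was not tested. Their probes were also dimmer. The median log2 intensity was 8.56 for translation factors, 8.4 for tRNA ligases and 9.15 for assembly and RNA factors, against 11 for the members. The offset draws ratios of dim probes towards 0, and its part in this difference was not tested.

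The proteins of the cytosolic ribosome and of the respiratory chain gave values like those of the members. Of 81 cytosolic ribosomal proteins 73 lay above 0 (median 0.106), with pair medians of 0.20, 0.0336, 0.183 and -0.026. Of 77 oxidative phosphorylation genes 56 lay above 0 (median 0.078), with pair medians of 0.148, -0.00466, 0.108 and -0.0036. In both lists, as among the members, pairs 1 and 3 were high and pairs 2 and 4 low. All 3 lists were measured on the same mice and arrays. The 4426 genes in the members' interquartile range of intensity had a median of 0.00362 and 51.1% of them lay above 0.

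Markers of the cells in the captured areas also differed between pairs. Of 28 Sertoli cell markers 22 were measured, Sox9 and Wt1 among them, and Gata4, Dmrt1 and Kitl were among those that did not pass the filter. The Sertoli list had 17 of 22 genes above 0 (median 0.0358), with pair medians of 0.0818, 0.0896, -0.0729 and 0.0382. Its summed level ran from 56667 to 74353 intensity units in the DEHP mice and from 48397 to 67533 in the vehicle mice. The 14 markers of elongating spermatids had pair medians of -0.422, 0.069, 0.0643 and 0.202, and summed levels of 777390 to 1093416 in the DEHP mice and 800047 to 1116529 in the vehicle mice. The 8 Leydig cell markers measured of 12 had pair medians of -0.147, 0.219, -0.646 and -0.267, with sums of 10491 to 19402 and 9475 to 18473, and Cyp11a1, Hsd17b3, Hsd3b6 and Lhcgr did not pass the filter. Their part in the members' ratios was not tested.

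**Figure D5:**
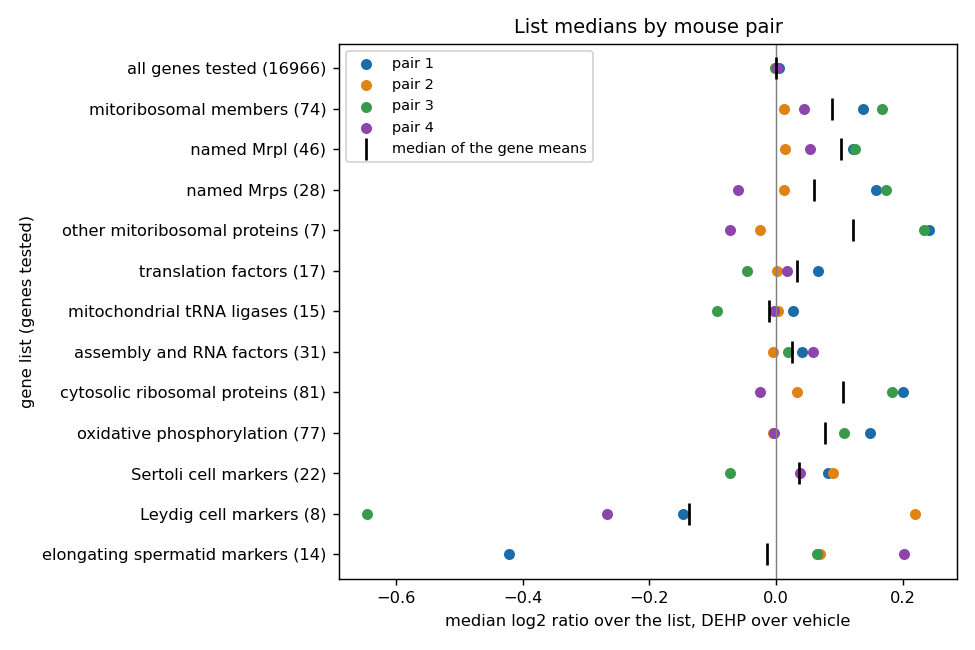
Median log2 ratio of DEHP over vehicle over the genes of each list (x axis) in the 4 mouse pairs (coloured points), with the median of the gene means (black ticks); the number of genes measured stands beside each list. Mitochondrial and cytosolic ribosomal proteins and oxidative phosphorylation genes lie higher in pairs 1 and 3 than in pairs 2 and 4.

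The promoters and neighbours of the members were set beside these ratios. The 16 members with the ETS core upstream had a median of 0.0973 and the 49 without it one of 0.0893. For GGGCGG, a site of SP1, the 31 with it had 0.0683 and the 34 without it 0.11. For TGCGCATG, the 6 with it had 0.136 and the 59 without it 0.0893. TGCGCATG is not contained in the NRF1 site above, so this is not a split by that site. These differences were not tested. Another gene started within 1000 bases on the opposite strand at 27 of 72 member promoters (37.5%), against 11.3% of all promoters and 15.9% of those of genes measured. Mrpl46 and Mrps11 formed such a pair with each other, with means of 0.060 ± 0.080 and 0.12 ± 0.13. Others paired a member with a mitochondrial partner, such as Mrps12 with the tRNA ligase Sars2 (0.016 ± 0.16 and -0.018 ± 0.053), Mrpl43 with the DNA helicase Twnk (0.17 ± 0.16 and 0.074 ± 0.079) and Mrpl47 with the complex I subunit Ndufb5 (0.15 ± 0.19 and 0.18 ± 0.39). Of 19 neighbour pairs with both genes measured, 8 had means of the same sign.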

How the data were processed

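Per the file headers, the authors' scanner files held mean foreground and median background intensity per spot (Agilent Feature Extraction 9.5.1.1) and that software's log10 ratio of Cy5 over Cy3. The authors also deposited log2 ratios, with limma named in the submitters' processing notes. The values themselves showed which way these ratios run and which spot each belongs to. For the authors' ratios the limma version, background correction, normalization and filter are not given in the sources used here.

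Intensities were corrected by normexp (offset 50), normalised by loess within arrays, averaged by probe, and given the direction DEHP over vehicle from the dye labels. Control and outlier-marked spots were left out. The 2 arrays of a pair were averaged, which leaves 4 values per probe, and an intercept was fitted with limma 3.58.1 in R 4.3.3 (packages data.table, version 1.17.8, and statmod, version 1.5.0) over 22971 probes, 2-sided, with Benjamini-Hochberg adjustment at 0.05. Levels per mouse came from the separate channels after Aquantile scaling. Simulated pair ratios served to test the fit.

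The members and lists were chosen with earlier results of these data known. Named were members with an adjusted p under 0.05, up to 8 per direction with the largest mean among those of one sign throughout the 4 pairs, the 5 with the smallest p, the 3 with the largest SD, the 3 with the smallest sum of absolute mean and SD, members whose probes differ in sign, those not measured, and 17 by name, and from each other list the smallest p, highest and lowest. The marker lists gave these counts of measured genes above 0: Sertoli 17 of 22, spermatogonia 1 of 7, spermatocytes 7 of 17, round spermatids 6 of 14, elongating spermatids 7 of 14, Leydig 2 of 8, peritubular 3 of 7, macrophages 2 of 8, and endothelium and blood 2 of 5. The labels of the arrays give the pairs; 2 mice make up the 2 arrays of each. P-values and confidence intervals rest on the spread between the 4 mouse pairs, which limma draws towards that of all probes kept.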

Additional observations from a re-analysis of the deposited data

Results flagged for a closer look

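Among 44 sets of 4 pair values examined, 2 held a value far from the other 3, and chance alone flags about 1 set in 20. Mrps6 stood at 0.76 in pair 4, and a second probe of the gene stood at 0.70 there. Mrpl11 stood at -0.0944 in pair 2, where the other pairs lay between -0.02 and -0.004.

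In 5 members picked by the naming rule every array of one dye orientation lay opposite to every array of the other, a difference that was not tested. With DEHP in Cy5 and in Cy3, respectively, the means were -0.164 and 0.0983 for Mrpl11, -0.18 and 0.256 for Mrpl41, -0.194 and 0.262 for Mrpl51, -0.176 and 0.153 for Mrps15, and 0.0916 and -0.139 for Mrps7.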

How the results depend on the processing

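The count of members past the threshold was 0 under every alternative run, as was the count of all probes, and the smallest adjusted p among members ran from 0.443 (arrays with DEHP in Cy3) to 0.999. At an unadjusted p under 0.05 stood 0 members with the scanner software's ratio, the authors' deposited ratios or a trended robust variance, and up to 16 with median centring. With the mouse pair as a replicate block and a dye term over 8 arrays (estimated correlation 0.82), 0 members and 0 probes passed, and the smallest adjusted p among members was 0.618. The block changed no call.

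Median centring in place of loess moved the members' median to 0.191 with 70 of 74 above 0, while the median of all genes was 0.0188 with 57% above 0. It also moved the medians of genes named Mrpl to 0.204, of cytosolic ribosomal proteins to 0.266 and of oxidative phosphorylation to 0.209. The scanner software's ratio put assembly factors at 0.0848, and the authors' deposited ratios put them at 0.0759 and tRNA ligases at -0.0928; the cause was not tested. With RefSeq probes alone, 1 member had all DEHP mice above all vehicle mice. That choice leaves out the opposite-strand probe of Mrps18b, the only kept probe of Mrpl44 and the brightest probe of Mrps2.

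Leaving out each pair in turn gave medians from 0.0592 to 0.119 for the members (lowest without pair 1, with 52 of 74 above 0, and 51 without pair 3), 0.063 to 0.114 for genes named Mrpl, 0.0228 to 0.126 for genes named Mrps, 0.0372 to 0.172 for other mitoribosomal proteins, -0.00666 to 0.0359 for translation factors, -0.0322 to 0.0217 for tRNA ligases, 0.0186 to 0.0302 for assembly factors, 0.0856 to 0.138 for cytosolic ribosomal proteins and 0.0252 to 0.0916 for oxidative phosphorylation. Single members were less stable: 17 of 74 took the other sign on the arrays with DEHP in Cy5 and 14 without pair 3. The members' median stayed above 0 under every alternative run.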
